A study of Mus musculus with 12 samples.

Results

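Polyamines (putrescine, spermidine and spermine) are small, positively charged molecules that bind RNA and DNA and that growing cells need in quantity. The 10 genes that make them, hold them in check, break them down or use them, read here across splenic B cells, were Odc1, Srm, Sms, Amd1, Oaz1, Oaz2, Azin1, Sat1, Smox and Dhps. They were chosen by name, not by a measured value, though with earlier results of these data known. They were matched to the gene names in the scanner files, where Azin1 and Sat1 may appear under the older names Oazin and Sat. All 10 were on the array with 23 probes, and all 10 were among the 17133 genes tested, each read from its brightest probe, which was well above background on 12 of 12 arrays.

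In mammals Odc1 (ornithine decarboxylase) makes putrescine from ornithine and is the usual rate-limiting step. Amd1 (S-adenosylmethionine decarboxylase) supplies the aminopropyl groups with which Srm (spermidine synthase) and Sms (spermine synthase) build spermidine and spermine. Antizymes, the products of Oaz1 and Oaz2, bind the Odc1 protein and bring it to the proteasome, and Azin1, an inactive relative of Odc1, takes antizyme away from it. Sat1 acetylates spermidine and spermine for export or oxidation, Smox oxidises spermine back to spermidine, and Dhps uses spermidine to begin the hypusine modification of the translation factor Eif5a. Much of this control is on protein synthesis and breakdown, which RNA levels do not show.

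The cells came from the spleens of C57BL/6 mice that carried RERT-Cre, a Cre recombinase fused to an oestrogen receptor so that tamoxifen switches it on. The 4 groups, of 3 arrays each, were LPS-stimulated B cells of Ebf1 fl/fl RERT-Cre mice, LPS-stimulated B cells of Ebf1 +/fl RERT-Cre mice (the heterozygote control), resting fl/fl cells and resting +/fl cells. Ebf1 is a transcription factor of the B lineage, and LPS is a bacterial lipopolysaccharide that makes B cells grow and divide. Every mouse, controls included, received 3 mg tamoxifen citrate on 4 consecutive days and was killed on day 10, so the genotypes differ in carrying 1 or 2 floxed alleles, not in Cre or tamoxifen. The labels give no age, no LPS dose or time and no promoter for the Cre. They name a B220+AA4.1- gate and a second, narrower one that adds CD21lo, without assigning them to samples. They do not say whether the 3 samples of a group were separate animals. The p-values therefore cover only the spread among these samples, possibly a technical spread, and 3 arrays in a group limit the precision.

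The B cell markers Cd79a, Ms4a1 and Pax5 were well above background on all 12 arrays, but so were markers of T cells (Cd3e), NK cells (Ncr1) and neutrophils (S100a8). The summed signal of 8 B cell markers, in multiples of the array's 75th percentile, was 327 to 395 on LPS arrays, against 802 to 1049 on resting arrays, and that of 7 T cell markers was 6.17 to 9.45, against 15.2 to 26.1. One array stood apart: LPS fl/fl replicate 2 passed the scanner's background limit at 83.2% of its spots and had a median signal of 93.0. The other arrays passed it at 54.4% to 61.4% of spots and had median signals of 19.0 to 35.9. The +/fl samples resting 3 and LPS 1 share a number in their sample names. Of the Ebf1 probes, A_51_P188054 was higher in resting fl/fl than in resting +/fl cells by 0.62 (log2, adjusted p = 0.0384 over probes) and A_52_P531838 was lower, by −1.90 (adjusted p = 0.0432). The place of either probe relative to the deleted exon was not determined here, so they do not check the genotype labels. Arrays measure RNA of a cell mixture, in which fewer cells of a type and less RNA per cell cannot be told apart.

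In both genotypes LPS raised the RNAs of the 4 enzymes that make polyamines, Odc1, Srm, Sms and Amd1, and lowered Sat1, which marks polyamines for removal. In fl/fl cells 6 of the 10 genes rose (Odc1, Srm, Amd1, Smox, Sms and Oaz2), 1 fell (Sat1) and 3 did not pass the threshold. In +/fl cells 6 rose (Srm, Odc1, Amd1, Sms, Dhps and Azin1), 1 fell (Sat1) and 3 did not pass. LPS changed much of the transcriptome: 30.2% of all genes rose and 25.4% fell in fl/fl cells, and 30.7% rose and 27% fell in +/fl cells, at an adjusted p under 0.05. LPS and resting arrays without overlap were also common. In fl/fl cells 5803 of the 17133 genes lay higher and 4831 lower without overlap, beside 6 and 1 of the 10. In +/fl cells these were 5801 and 5450, beside 7 and 1 of the 10. The median difference of the 10 genes was 0.54 in fl/fl cells and 0.76 in +/fl cells, beside 0.07 and −0.02 for all genes. Values are log2 signal relative to the 75th percentile of the same array, differences are on the log2 scale, and levels of different genes are not compared because probes differ in brightness. The LPS response of each genotype shares its arrays with the genotype comparisons given further on.

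**Figure D1:**
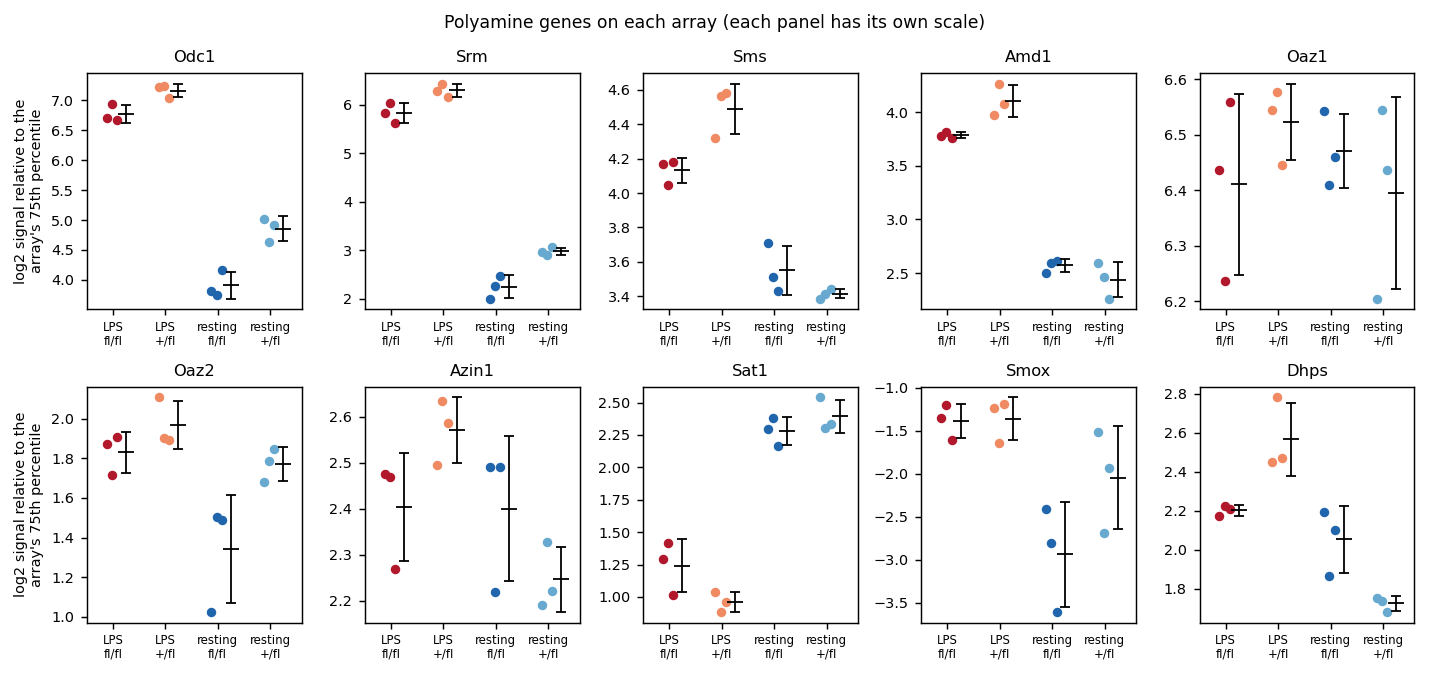
Log2 signal of the 10 polyamine genes relative to the 75th percentile of each array (vertical axes, each panel with its own scale), by group (horizontal axes). Coloured points are the 3 arrays of a group, and the black bar beside them is their mean with its SD. For Odc1, Srm, Sms and Amd1 all 6 LPS arrays lie above all 6 resting arrays, and for Sat1 all 6 lie below them, while Oaz1 differs little between groups.

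Odc1 was read from probe A_51_P291347 at chr12:17601268-17601326 (mm7, plus strand). Its log2 signal was 6.71, 6.94 and 6.67 in LPS-stimulated fl/fl cells, against 3.81, 3.75 and 4.16 in resting fl/fl cells. In +/fl cells it was 7.22, 7.23 and 7.03 after LPS, against 5.02, 4.62 and 4.92 at rest. The groups stood in the order LPS +/fl, LPS fl/fl, resting +/fl and resting fl/fl, with no overlap between neighbours, although the difference between the LPS groups did not pass the threshold. The LPS response was 2.86 ± 0.15 (SE), or 7.28-fold, in fl/fl cells (adjusted p = 2.75e-07) and 2.31 ± 0.15, or 4.94-fold, in +/fl cells (adjusted p = 8.22e-07). Within slides it was 2.92 and 2.66 in fl/fl cells on slides 2 and 3, and 2.51 and 2.20 in +/fl cells on slides 1 and 2. A further pair of probes gave the same direction from other stretches of the gene. They are shown because the Odc1 results rest on all 3 probes. Both are printed 5′ to 3′ in lower case with no part marked, and the files do not say which exon a probe is in:
A_52_P436238 (chr12:17598312-17598371, mm7, plus strand): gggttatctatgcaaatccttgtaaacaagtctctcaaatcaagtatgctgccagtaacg
A_52_P7041 (chr12:17600319-17600375, mm7, plus strand): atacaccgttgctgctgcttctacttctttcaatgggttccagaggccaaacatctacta
The first responded to LPS by 3.37 in fl/fl and 2.37 in +/fl cells, and the second by 3.05 and 2.12, all with adjusted p of 1.58e-05 or lower over probes.

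Srm had the largest LPS response of the 10 genes in both genotypes. Its log2 signal was 5.83, 6.04 and 5.63 in LPS-stimulated fl/fl cells, against 2.0, 2.25 and 2.47 in resting fl/fl cells. In +/fl cells it was 6.30, 6.43 and 6.17 after LPS, against 2.96, 2.91 and 3.06 at rest. The groups stood in the same order as for Odc1, again with no overlap between neighbours. The difference was 3.59 ± 0.15, a 12.1-fold rise, in fl/fl cells (adjusted p = 8.09e-08) and 3.32 ± 0.15 in +/fl cells (adjusted p = 1.04e-07). These were the 156th and 103rd highest LPS responses of 17133 genes. Srm has 1 probe, A_51_P300709 (chr4:147583866-147583925, mm7, plus strand), so no other probe checks it.

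Amd1 and Sms rose less. Amd1 had 3.78, 3.81 and 3.76 in LPS-stimulated fl/fl cells, against 2.50, 2.59 and 2.62 in resting fl/fl cells, and 3.97, 4.26 and 4.08 in LPS-stimulated +/fl cells, against 2.59, 2.46 and 2.26 in resting +/fl cells. LPS and resting arrays did not overlap in either genotype, while the resting groups overlapped each other. The response of Amd1 was 1.21 ± 0.11 in fl/fl cells (adjusted p = 9.13e-06) and 1.67 ± 0.11 in +/fl cells (adjusted p = 1.01e-06). Its second probe, A_52_P484807, responded by 1.79 and 1.42. The probe named Amd2, a close copy of Amd1, lies at chr10:40076544-40076603 (mm7, minus strand), beside the Amd1 probes at chr10:40074792-40074851 and chr10:40075658-40075717, so signals of the pair cannot be assigned to one gene with certainty.

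Sms had 4.17, 4.05 and 4.18 in LPS-stimulated fl/fl cells, against 3.71, 3.51 and 3.43 in resting fl/fl cells, and 4.32, 4.56 and 4.58 in LPS-stimulated +/fl cells, against 3.39, 3.42 and 3.44 in resting +/fl cells. All LPS arrays were above all resting arrays. Its response was 0.58 ± 0.11 in fl/fl cells (adjusted p = 0.00112) and 1.07 ± 0.11 in +/fl cells (adjusted p = 1.56e-05). A second probe, A_52_P573377, agreed in direction with 0.66 and 0.83. The third, A_52_P545192 (chrX:152233402-152233461, mm7, minus strand), lies outside the stretch between the other probes and is listed in the files under another transcript. It gave −0.43 in fl/fl cells and −0.11 in +/fl cells, neither past the threshold (adjusted p = 0.101 and 0.683), so the rise of Sms holds for 2 of its 3 probes. With the signals scaled by the array median instead of the 75th percentile, the rise of Sms in fl/fl cells no longer passed the threshold. It also failed there with the mean over probes, and in both genotypes with another background correction (normexp). With normexp repaired for spots of high local background it passed in both.

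The responses kept their direction within each slide that held LPS and resting arrays of a genotype, slides 2 and 3 for fl/fl cells and slides 1 and 2 for +/fl cells. Srm gave 3.38 and 3.46 in fl/fl cells and 3.39 and 3.33 in +/fl cells. Amd1 gave 1.16 and 1.18, and 1.71 and 1.38, and Sms 0.67 and 0.68, and 1.16 and 0.93. Sat1 was negative on each, at −1.37 and −0.81 in fl/fl cells and −1.38 and −1.51 in +/fl cells.

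**Figure D2:**
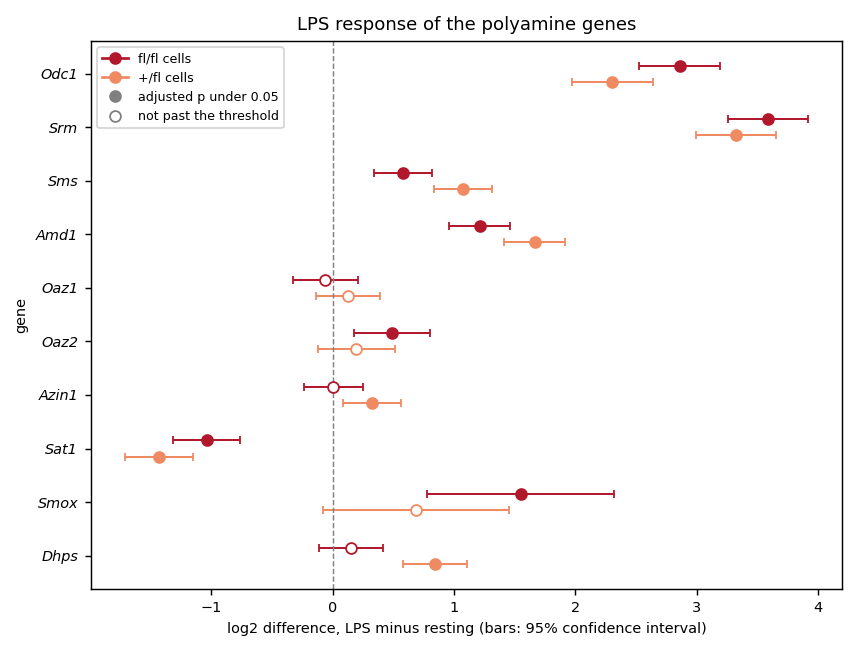
LPS response of the 10 polyamine genes: log2 difference, LPS minus resting (horizontal axis), in fl/fl cells (dark red) and +/fl cells (orange), with bars for the unadjusted 95% confidence interval. Filled points passed an adjusted p of 0.05, open points did not. Srm and Odc1 stand farthest to the right in both genotypes, and Sat1 is the gene that passed to the left of 0.

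Among the genes that control the Odc1 protein, read from their brightest probes, Oaz2 rose in fl/fl cells, Azin1 rose in +/fl cells and Oaz1 passed in neither. Oaz1, the main antizyme gene, had 6.44, 6.24 and 6.56 in LPS-stimulated fl/fl cells, against 6.54, 6.41 and 6.46 in resting fl/fl cells, and 6.54, 6.58 and 6.45 in LPS-stimulated +/fl cells, against 6.21, 6.54 and 6.44 in resting +/fl cells. Its groups overlapped throughout. The difference was −0.06 in fl/fl cells (95% confidence interval −0.33 to 0.21) and 0.13 in +/fl cells (−0.14 to 0.39). A change in Oaz1 larger than 0.39 in either direction lies outside both intervals. Its second probe, A_52_P461292, gave 0.14 and 0.08.

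Oaz2, the second antizyme gene, had 1.87, 1.71 and 1.91 in LPS-stimulated fl/fl cells, against 1.03, 1.51 and 1.49 in resting fl/fl cells, without overlap (0.49 ± 0.14, adjusted p = 0.0133). In +/fl cells it had 2.11, 1.90 and 1.89 after LPS, against 1.68, 1.79 and 1.85 at rest, a difference of 0.20 (adjusted p = 0.263). The rise in fl/fl cells did not pass with scaling by the array median, the mean over probes, or normexp background correction, original or repaired. It also failed with only the 6 arrays of the comparison, and at a threshold of 0.01. The 4 Oaz2 probes gave 0.15 to 0.59 in fl/fl cells but −0.16 to 0.20 in +/fl cells, where 2 of the 4 were below 0. In fl/fl cells A_52_P157408 (0.15) and A_52_P654130 (0.18) did not pass (adjusted p = 0.337 and 0.248 over probes). The probe with the widest range lies across 907 bases of the mm7 genome, more than its own length, so it joins parts of the transcript that are apart in the genome. It gave 0.59 in fl/fl cells (adjusted p = 0.0327 over probes) and 0.02 in +/fl cells:
A_52_P90289 (chr9:65717613-65718519, mm7, plus strand): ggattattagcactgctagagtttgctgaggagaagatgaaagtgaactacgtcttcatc

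Azin1, which frees Odc1 from antizyme, had 2.48, 2.47 and 2.27 in LPS-stimulated fl/fl cells, against 2.49, 2.22 and 2.49 in resting fl/fl cells (0.00, 95% confidence interval −0.24 to 0.25). In +/fl cells it had 2.49, 2.63 and 2.59 after LPS, against 2.19, 2.33 and 2.22 at rest (0.32 ± 0.11, adjusted p = 0.0265), a rise that passed in 16 of 29 alternatives. Another Azin1 probe read more: A_52_P24631 rose in fl/fl cells by 0.96 (adjusted p = 0.000195) and in +/fl cells by 1.13 (adjusted p = 5.64e-05). The third, A_52_P117313, was well above background on only 1 of 3 resting +/fl arrays, so no fold is given for it there. In fl/fl cells it gave 0.73 (adjusted p = 0.18). The size of the Azin1 response, and whether it passed in fl/fl cells, therefore differed with the probe read.

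**Figure D3:**
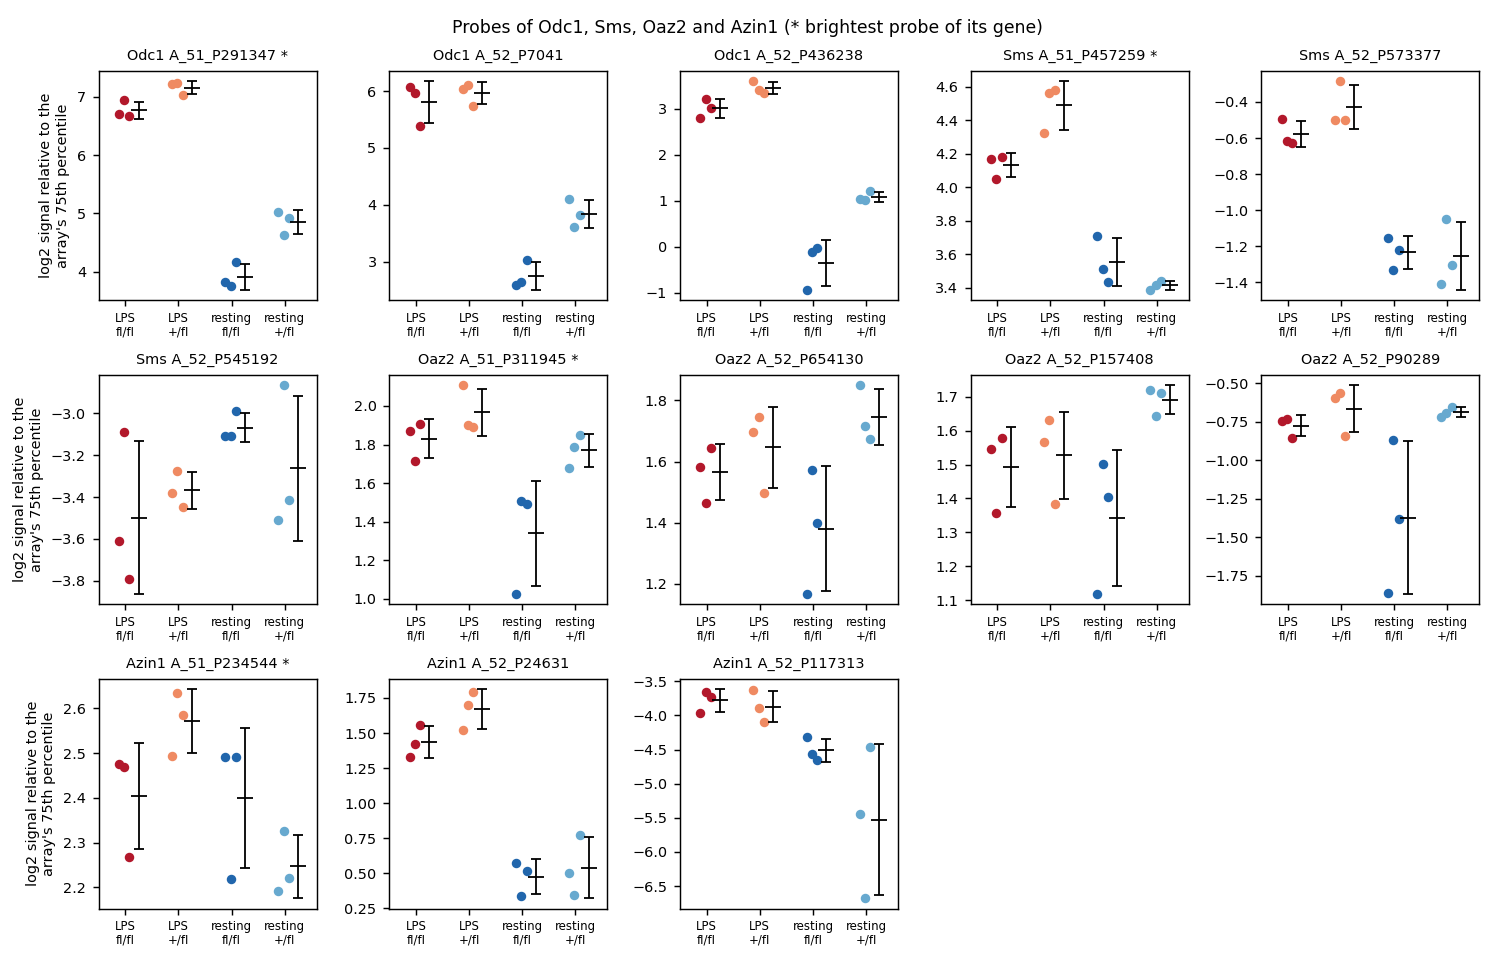
Log2 signal of each probe of Odc1, Sms, Oaz2 and Azin1 relative to the 75th percentile of each array (vertical axes, each panel with its own scale), by group (horizontal axes). Points are arrays, black bars are means with SD (n = 3), and a star marks the brightest probe of its gene. The 3 Odc1 probes give 1 pattern, A_52_P545192 does not follow the other Sms probes, and A_52_P24631 separates LPS from resting arrays while the brightest Azin1 probe does not in fl/fl cells.

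Of the genes that take polyamines apart, Sat1 fell and Smox rose. Sat1 had 1.29, 1.42 and 1.01 in LPS-stimulated fl/fl cells, against 2.30, 2.38 and 2.17 in resting fl/fl cells, and 1.04, 0.89 and 0.96 in LPS-stimulated +/fl cells, against 2.54, 2.30 and 2.34 in resting +/fl cells. All LPS arrays lay below all resting arrays. Sat1 fell by 1.04 on the log2 scale, or 2.06-fold, in fl/fl cells (SE 0.12, adjusted p = 5.83e-05) and by 1.43, or 2.70-fold, in +/fl cells (SE 0.12, adjusted p = 5.64e-06). Its second probe, A_51_P348494, fell by 0.92 and 1.30.

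Smox was a dim probe with wide spread. It had −1.36, −1.21 and −1.60 in LPS-stimulated fl/fl cells, against −2.41, −2.81 and −3.61 in resting fl/fl cells, and −1.24, −1.65 and −1.20 in LPS-stimulated +/fl cells, against −1.51, −2.69 and −1.93 in resting +/fl cells. The groups did not overlap in fl/fl cells and did in +/fl cells. The difference was 1.55 ± 0.34 in fl/fl cells (adjusted p = 0.0033) and 0.69 ± 0.34 in +/fl cells (adjusted p = 0.116). A second Smox probe, A_52_P430194, was not well above background on any resting array and was above it on all 6 LPS arrays. It was at least 3.06-fold higher after LPS in fl/fl cells and at least 1.93-fold higher in +/fl cells, taking for each resting array the lowest signal that any probe well above background had there, or the probe's own signal where that was higher. The probe entered the test only through LPS arrays. Its adjusted p-values over probes, 1.27e-05 and 0.00242, come from measured values that include resting signals below background, not from these bounds.

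Dhps, which consumes spermidine, had 2.17, 2.23 and 2.21 in LPS-stimulated fl/fl cells, against 2.19, 1.86 and 2.10 in resting fl/fl cells (0.15 ± 0.12, adjusted p = 0.319). In +/fl cells it had 2.45, 2.78 and 2.47 after LPS, against 1.75, 1.74 and 1.68 at rest, with no overlap (0.84 ± 0.12, adjusted p = 0.000164). The fl/fl response minus the +/fl response was −0.69 (95% confidence interval −1.07 to −0.32, adjusted p = 0.0955), so a difference between the genotypes in this response did not pass the threshold. The same test passed for none of the 10 genes, with 4 of them at an unadjusted p under 0.05 in limma. Of all genes 0.163% passed the adjusted threshold and 20.3% had an unadjusted p under 0.05. By limma with an intensity trend and robust variances, 1 gene of the 10, Dhps, passed.

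Around these genes stands a wider list of 24 that make precursors, recycle by-products, carry polyamines or use spermidine, and 18 of them were tested. Arg1, Azin2, Oaz3, Sat2, Satl1 and Slc18b1 were well above background on at most 1 array. In fl/fl cells 10 of the 18 rose after LPS and 3 fell, and in +/fl cells 9 rose and 1 fell, with medians of 0.79 in both. Of all genes 30.2% rose and 25.4% fell in fl/fl cells, and 30.7% and 27% in +/fl cells, with medians of 0.07 and −0.02. In limma 13 and 11 of the 18 had an unadjusted p under 0.05, beside 59.8% and 61.8% of all genes. Mat2a, which makes S-adenosylmethionine, rose by 1.76 ± 0.11 in fl/fl and 2.26 ± 0.11 in +/fl cells. Mtap, which recycles the methylthioadenosine that Srm and Sms release, rose by 1.96 ± 0.10 and 2.08 ± 0.10, and Enoph1 of the same salvage route rose by 1.47 and 1.55. Eif5a, the protein that receives hypusine, rose by 1.95 ± 0.13 and 1.85 ± 0.13, and Dohh, which completes hypusine, by 1.05 and 1.20.

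Atp13a2, a lysosomal transporter known to export polyamines, fell by 1.52 on the log2 scale in fl/fl cells and by 2.0 in +/fl cells (SE 0.10 for both). Slc3a2, the heavy chain of amino acid transporters, rose by 0.80 and 1.09, Apip by 0.37 and 0.72, and Amd2 by 0.89 and 1.73. Adi1, another salvage enzyme, rose by 1.84 in fl/fl cells, where Oat, which takes ornithine away, fell by 0.40 and Mat2b, the partner subunit of Mat2a, fell by 0.26. Mri1 rose by 0.79 in +/fl cells. Arg2, which makes ornithine, was above background on 2 of 3 LPS-stimulated and no resting fl/fl arrays, so no fold is given for it. It entered the test only through LPS arrays, and its adjusted p of 0.0237 comes from measured values that include resting ones below background, so its place among the 10 rises is uncertain. The falls of Mat2b and Oat, and the rises of Apip in fl/fl cells, Mri1 and Arg2, failed the threshold in 8 or more of the alternatives run.

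Markers of other cells also differed between LPS and resting arrays. After LPS, 5 of 8 B cell markers fell in fl/fl and 6 of 8 in +/fl cells. All 3 NK cell markers fell in both genotypes. Of 4 platelet markers 3 fell in fl/fl cells and all 4 in +/fl cells, with median differences of −4.30 and −4.02. Their summed signal, in multiples of the array's 75th percentile, was 0.121 to 0.385 in LPS-stimulated fl/fl cells, against 1.60 to 6.93 in resting fl/fl cells, and 0.0627 to 0.140 in LPS-stimulated +/fl cells, against 0.687 to 1.59 in resting +/fl cells. Of 6 erythroid markers 2 fell in fl/fl and 4 in +/fl cells, with sums of 3.32 to 9.88 after LPS, against 7.72 to 100.3 at rest, in fl/fl cells and 4.90 to 32.0 after LPS, against 34.6 to 76.0 at rest, in +/fl cells. Of 7 T cell markers 1 rose and 1 fell in fl/fl cells and 3 fell in +/fl cells. Of 5 plasma cell markers 2 rose and 1 fell in each genotype, and none of 8 cycling markers passed in either. Of 9 macrophage and monocyte markers 4 fell and 1 rose in fl/fl cells and 7 fell in +/fl cells. The summed signal of these 9 was 47.0 to 53.3 in LPS-stimulated fl/fl cells, against 23.8 to 41.2 in resting fl/fl cells, and 29.1 to 44.5 in LPS-stimulated +/fl cells, against 33.4 to 117 in resting +/fl cells. All 5 neutrophil markers rose in fl/fl cells, with a sum of 16.6 to 73.3 after LPS, against 1.93 to 5.30 at rest, and none passed in +/fl cells, where the sums were 9.11 to 86.3 after LPS, against 4.23 to 53.8 at rest. The part of these cells in the responses of the polyamine genes was not tested.

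In resting cells, Odc1 and Srm were lower in fl/fl than in +/fl cells, and the other 8 genes did not pass the threshold. Across all genes 4.64% were higher and 4.18% lower in resting fl/fl cells. The median difference of the 10 genes was −0.02, beside 0.05 for all genes, with 5 of the 10 and 27.7% of all genes at an unadjusted p under 0.05. Odc1, with the values given above, was lower in every resting fl/fl array than in any resting +/fl array, by −0.95 ± 0.15, or 1.93-fold (adjusted p = 0.00932). Its other probes gave −1.44 (adjusted p = 0.00985) and −1.09 (adjusted p = 0.02). Srm was lower by −0.73 ± 0.15, or 1.66-fold (adjusted p = 0.0195), also without overlap.

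Each slide held 1 resting array of each genotype, and the difference had the same sign within all 3. For Odc1 it was −0.81, −1.27 and −0.76 on slides 1, 2 and 3, and for Srm −0.91, −0.71 and −0.59. The call of Odc1 did not pass with scaling by the array median (adjusted p = 0.239), with only the 6 resting arrays in the model (0.0743), without the pair of arrays that share a number (0.0559) or without resting +/fl replicates 1 and 3 (0.168), and the values were then −0.93, −0.95, −0.91 and −0.71. The call of Srm ended under those settings too, and also when resting +/fl replicate 1, resting +/fl replicate 3 or resting fl/fl replicate 1 was left out (adjusted p = 0.0549, 0.0555 and 0.0643).

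Of the genes that did not pass at rest, Oaz2 was lower in fl/fl cells by −0.43 (95% confidence interval −0.74 to −0.12, adjusted p = 0.083) without overlap, and Dhps was higher by 0.33 (0.06 to 0.59, adjusted p = 0.11), also without overlap. All 4 Oaz2 probes were negative, at −0.68 to −0.35. Groups that do not overlap were common here: 18.7% of all genes lay higher and 12.6% lower without overlap, beside 1 and 3 of the 10. Smox was at −0.89 with a wide interval of −1.66 to −0.12 (adjusted p = 0.128) and overlapping arrays. Sms, Amd1, Oaz1, Azin1 and Sat1, read from their brightest probes, differed by −0.11 to 0.15, with intervals that reached no farther than −0.39 and 0.40. Single other probes of Amd1 (−0.30 ± 0.25), Oaz1 (−0.15 ± 0.09) and Sms (0.19 ± 0.20) differed by more, none past the threshold. For the Azin1 probe A_52_P117313, above background on 1 of 3 resting +/fl arrays, no difference is given. In the wider list Paox, which oxidises acetylated polyamines, was lower in resting fl/fl cells by −0.63 ± 0.15 (adjusted p = 0.035), and Mat2b was higher by 0.35 ± 0.09 (adjusted p = 0.0474), calls that held in 12 and 4 of 29 alternatives.

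Cell cycle markers moved with genotype at rest. Of 8 cycling markers 4 were lower in resting fl/fl cells, with a median difference of −2.31, and their summed signal was 2.06 to 5.02 in resting fl/fl cells, against 6.77 to 22.3 in resting +/fl cells. Of 9 macrophage and monocyte markers 1 was lower, with sums of 23.8 to 41.2 in resting fl/fl and 33.4 to 117 in resting +/fl cells. The 5 neutrophil markers summed to 1.93 to 5.30 in resting fl/fl and 4.23 to 53.8 in resting +/fl cells, with none past the threshold. On resting +/fl replicates 1, 2 and 3 the neutrophil sums were 53.8, 4.23 and 53.8. Those of macrophage and monocyte markers were 117, 33.4 and 73.5, and of cycling markers 16.6, 6.77 and 22.3. Replicates 1 and 3 were left out together in a fit above. Of 8 B cell markers 2 were lower, with a median difference of −0.45. No T cell, erythroid, plasma cell, NK cell or platelet marker passed, with medians of −0.41, −1.66, −0.52, 0.08 and 1.18. The part of these cells in the lower Odc1 and Srm signal was not tested.

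**Figure D4:**
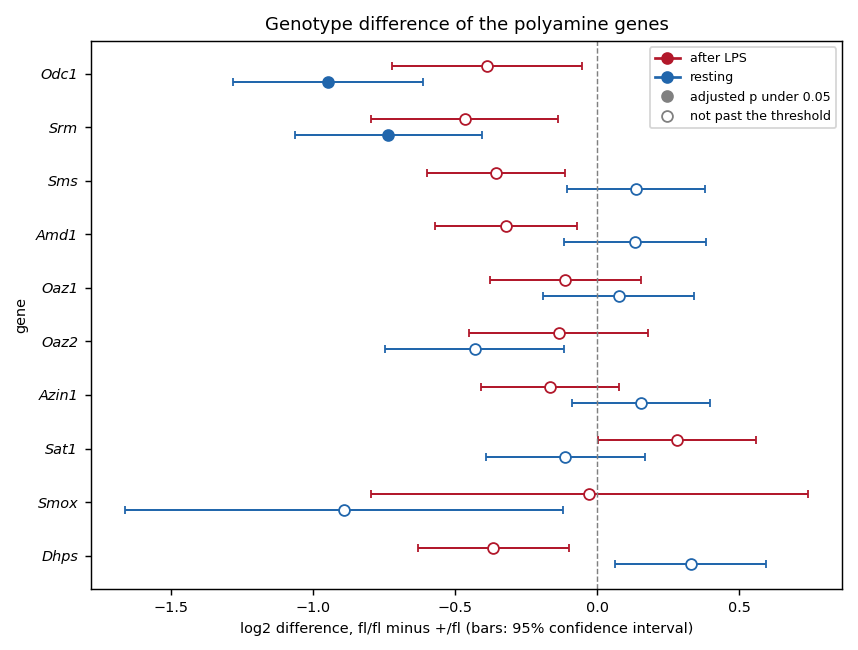
Genotype difference of the 10 polyamine genes: log2 difference, fl/fl minus +/fl (horizontal axis), after LPS (dark red) and at rest (blue), with bars for the unadjusted 95% confidence interval. Filled points passed an adjusted p of 0.05, open points did not. Odc1 and Srm at rest are the filled points, and after LPS all genes but Sat1 lie left of 0.

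After LPS none of the 10 genes passed the threshold between the genotypes in limma, with 6 of them at an unadjusted p under 0.05. Across all genes 1.62% passed, and 21.5% had an unadjusted p under 0.05. The differences, fl/fl minus +/fl, were negative for 9 of the 10, with a median of −0.24 beside 0.04 for all genes. Srm was at −0.47 (95% confidence interval −0.79 to −0.14, adjusted p = 0.126), Odc1 at −0.39 (−0.72 to −0.05, adjusted p = 0.178), Dhps at −0.36 (−0.63 to −0.10), Sms at −0.36 (−0.60 to −0.11) and Amd1 at −0.32 (−0.57 to −0.07). Sat1 was the exception at 0.28 (0.00 to 0.56, adjusted p = 0.231). These are brightest probes. Other probes of Odc1 gave −0.44 and −0.15, and of Sms −0.13 and −0.15. For Amd1 the other probe gave 0.06, for Azin1 −0.24 and 0.09, and for Smox 0.69. Those of Oaz1 and Oaz2 were also negative, and that of Sat1 positive. With another background correction (normexp), Srm, Odc1, Dhps, Sms, Amd1, Oaz1, Oaz2 and Azin1 were above 0, at 0.05 to 0.39. With normexp repaired for spots of high local background, all of these stayed below 0, and Smox was at 0.004. With scaling by the array median Sat1 was at −0.24. Every LPS-stimulated fl/fl array was below every LPS-stimulated +/fl array for 6 of the 10 (Srm, Odc1, Dhps, Sms, Amd1 and Azin1), beside 17.9% of all genes.

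The count stayed at 0 of the 10 when each of the 6 LPS arrays was left out in turn. With arrays weighted by their quality, 5 of the 10 genes passed, all lower in fl/fl cells (Srm, Odc1, Dhps, Sms and Amd1), while the number of all genes past the threshold was 2768, against 278 with equal weights. None of 8 cycling markers passed after LPS, with a median difference of −1.71. Their summed signal, in multiples of the array's 75th percentile, was 1.69 to 5.52 in LPS-stimulated fl/fl cells, against 5.19 to 10.1 in LPS-stimulated +/fl cells, and their part in the lower polyamine gene signals was not tested. Slide 2 was the one slide with LPS arrays of both genotypes, and there Odc1 differed by −0.55, Srm by −0.66 and Sms by −0.14. On it Smox differed by −0.36, Dhps by −0.24, Azin1 by −0.23, Amd1 by −0.21 and Oaz2 by −0.20. Oaz1 (0.01) and Sat1 (−0.02) differed little there. The other LPS arrays were on slide 3 for fl/fl and slide 1 for +/fl cells. With slide as a fixed block, 5 of all genes passed after LPS, against 278 without it, and none of the 10 did.

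Myc, a transcription factor for which Odc1 is a well known target, was measured beside them. It had 5.54, 5.99 and 5.82 in LPS-stimulated fl/fl cells, against 2.75, 2.24 and 2.24 in resting fl/fl cells, and 6.15, 6.25 and 6.04 in LPS-stimulated +/fl cells, against 3.14, 3.31 and 3.45 in resting +/fl cells. Its 4 groups stood in the order of Odc1, without overlap, although the difference between the LPS groups (−0.37, adjusted p = 0.247) did not pass the threshold. Myc rose by 3.37 ± 0.17 in fl/fl and 2.85 ± 0.17 in +/fl cells after LPS, and at rest it was lower in fl/fl cells by −0.89 ± 0.17 (adjusted p = 0.0169), which passed in 21 of 29 alternatives.

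The 5 genes whose pattern over the 12 arrays was nearest to Odc1 were Bzw2, 1110038B12Rik, Psat1, Rcc1 and Wdr12. Likeness was the root mean square difference of log2 signals after centring each gene, which was 0.15 for Bzw2 and 0.19 for Wdr12, beside a median of 1.42 for all genes. Psat1 is an enzyme of serine synthesis, Rcc1 the exchange factor of the small GTPase Ran, and Wdr12 a ribosome assembly factor. All 5 rose after LPS in both genotypes (by 2.09 to 2.71) and were lower in resting fl/fl cells (by −1.07 to −0.60), which follows from how they were picked. Myc stood at 0.35, with 145 genes nearer, and Srm at 0.46, with 384 nearer.

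The start regions of genes that rose and of one that fell are shown for their letters. RefSeq start windows (GRCm38.p6, 250 bases before to 50 after the start, 300 in all) were found for 8 of the 10 genes, 9 windows in all, with none for Srm and Azin1. They were searched on both strands for the E-box CACGTG, the sequence that Myc with its partner Max is known to bind, and for the GC box GGGCGG. No window held both motifs, and GC boxes can overlap each other. The E-box was in 1 of the 9 windows, a Sms window, and in 7.15% of all 32851 mouse windows. The GC box was in 6 of the 9 and in 35.7% of all windows, 4 times in Odc1, 2 times in Sat1 and not in Oaz1 or Dhps. Capitals mark the GC box in Odc1 and Sat1 (CCGCCC is its other strand) and the E-box in Sms, each printed 5′ to 3′ on the strand of the gene:
Odc1 (chr12:17544623-17544922, GRCm38.p6, plus strand): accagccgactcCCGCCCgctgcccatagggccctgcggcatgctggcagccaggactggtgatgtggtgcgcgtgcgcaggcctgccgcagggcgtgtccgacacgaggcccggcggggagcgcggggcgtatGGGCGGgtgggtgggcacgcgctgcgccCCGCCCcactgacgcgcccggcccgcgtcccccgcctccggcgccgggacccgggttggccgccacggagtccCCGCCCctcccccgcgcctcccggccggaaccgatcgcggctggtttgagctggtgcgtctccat
Sms (chrX:157492238-157492537, GRCm38.p6, minus strand): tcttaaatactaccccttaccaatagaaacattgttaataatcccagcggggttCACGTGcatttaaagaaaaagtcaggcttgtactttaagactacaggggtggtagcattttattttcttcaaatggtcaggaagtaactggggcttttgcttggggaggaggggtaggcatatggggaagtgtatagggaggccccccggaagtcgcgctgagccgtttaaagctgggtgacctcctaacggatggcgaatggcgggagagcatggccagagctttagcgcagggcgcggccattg
Sat1 (chrX:155216400-155216699, GRCm38.p6, minus strand): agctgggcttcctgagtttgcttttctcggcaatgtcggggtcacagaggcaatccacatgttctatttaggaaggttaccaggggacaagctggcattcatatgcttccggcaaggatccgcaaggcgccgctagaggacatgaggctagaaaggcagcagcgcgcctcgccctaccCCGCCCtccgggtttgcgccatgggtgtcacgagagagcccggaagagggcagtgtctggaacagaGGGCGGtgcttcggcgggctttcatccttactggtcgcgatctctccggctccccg
Odc1, which rose after LPS, and Sat1, which fell, both hold GC boxes, and the Odc1 window has no CACGTG. A match describes letters only, and an E-box outside these 300 bases would not be seen.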

How the data were processed

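The data are scanner files of 12 Agilent 1-colour mouse arrays (design 014868, probe positions on mm7, a build whose genome was not used here). Per the file headers, the values are intensity: the Cy3 signal after the scanner software (Feature Extraction 9.5.3.1, or 9.1 in the submitters' processing notes) took off the background. The deposited value table also holds intensity, on a linear scale and with a common column median of 30.8. It ranks the probes of each array as the scanner signal does (Spearman correlation 0.9999 or higher), so a higher value means more signal. How it was scaled is unknown, and it served as an alternative.

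From the 43379 non-control spots of an array, those with a non-uniformity or population outlier mark were dropped (87 probes), replicate spots were averaged, and log2 signal taken relative to the array's 75th percentile. Kept were probes that 3 or more of the 12 arrays showed well above background, and a gene was read from the brightest of its probes. Names came from a RefSeq table by accession (22951 probes), symbol (6659) or older symbol (3109), or from the file (8455). No probe column of another sample was present. A limma model with 1 mean for each group used all 12 arrays (limma 3.58.1, R 4.3.3), with Benjamini-Hochberg adjustment over 17133 genes and a threshold of 0.05, and p-values "over probes" come from the same fit on 25677 probes. The steps were tested on simulated data. Members and lists were chosen with earlier results of these data known. Named were the 10 genes, Myc, genes of the wider list past the threshold, and the 5 genes nearest to Odc1. Alternatives were other background corrections, scalings, filters, blocks, weights, probes and arrays left out.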

Additional observations from a re-analysis of the deposited data

How the results depend on the processing

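The LPS responses of Odc1, Srm and Amd1 kept their direction and their side of the threshold in both genotypes under all 29 alternatives (readings of a single other probe aside), with ranges of 2.56 to 3.24, 3.29 to 3.86 and 0.91 to 1.55 in fl/fl cells and 2.10 to 2.55, 3.04 to 3.56 and 1.35 to 1.91 in +/fl cells. Sat1 kept both in 29 of 29 alternatives in +/fl and 28 in fl/fl cells. Azin1 in +/fl cells passed in 16 of 29 and Oaz2 in fl/fl cells in 23. At rest the lower Odc1 passed in 24 of 29 (−1.16 to −0.71) and the lower Srm in 19. The 2 genes that passed at rest became 1 (Odc1) at an adjusted p of 0.01 or with no filter. They became 0 with normexp background correction, only the 6 arrays of the comparison, scaling by the median, or without resting +/fl 1 and 3 or the 2 arrays sharing a number, and 1 to 2 when 1 array was left out. The 0 after LPS became 5 with array weights, and the interaction count became 1 (Dhps, lower) with trend and robust variances. With normexp 4 genes passed in place of 7 for LPS in +/fl cells and 3 in place of 7 in fl/fl cells. On 3 arrays 7, 20 and 16 spots had a local background over 2 times the array's median, as did 1 spot on resting fl/fl replicate 3. The repaired normexp set the background of these spots to that median. With it 7 of the 10 genes passed for LPS in each genotype, 2 at rest, and 0 after LPS and in the interaction. Of all genes 11130 passed for LPS in fl/fl cells, 11358 in +/fl cells and 1614 at rest. With the original normexp these counts were 2352, 1435 and 0. Of the called values 5 changed sign: Arg2 in fl/fl cells with normexp (−0.65), Mat2b in fl/fl cells with the mean over probes (0.023) and normexp (0.12), and Sms at probe A_52_P545192 in fl/fl (−0.43) and +/fl cells (−0.11). Among values that had not passed the threshold, 55 changed sign. The causes were not tested. The median of all genes moved by over 0.1 with scaling by the median, to −0.23 in the fl/fl and 0.22 in the +/fl response, −0.48 after LPS and −0.53 in the interaction. With normexp it moved to −0.42 in the fl/fl and −0.17 in the +/fl response, −0.12 after LPS and −0.18 in the interaction, and with no filter to 0.19, −0.21, 0.17 and 0.16 in that order. With a repaired normexp it was −0.22 and −0.21 in the fl/fl and +/fl responses. In the fl/fl response it was −0.11 with quantile normalization or the deposited values, and −0.03 without LPS fl/fl replicate 2. Counts of all genes past the threshold ran from 0 to 2226 at rest, 0 to 2768 after LPS, 2352 to 11130 and 1435 to 11358 for LPS in fl/fl and +/fl cells, and 0 to 409 in the interaction.

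Whether replicate numbers pair the samples was not settled, since deviations from means of 3 arrays cannot exclude it. Of 12 correlations of same-numbered deviations (−0.08 to 0.13) 2 were over 0.1, both between genotypes at replicate 3. Of 24 samples 6 correlated best with their own number. With replicate number as a block 2 genes passed at rest, 0 after LPS, 7 and 6 for LPS in fl/fl and +/fl cells, and 0 in the interaction. Depth has no count here. Smox, Arg2 and the dimmer probes near background are the least precise.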
